A study of Mus musculus with 4 samples.

Results

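The neurons described here are a small set of nuclei chosen by 6 transcripts of the suprachiasmatic nucleus, the paired cell group above the optic chiasm that holds the main circadian pacemaker of mammals. Nuclei with at least 1000 unique molecular identifiers (UMIs, each a tagged RNA molecule) and at least 3 UMIs of Snhg11, a long noncoding RNA abundant in neurons, were taken as neurons. A neuron was a member when the UMIs of Vip, Vipr2, Prok2, Rgs16, Sh2d4b and Syt10 summed to at least 3 and at least 2 of these 6 genes were detected. This gate kept 50 of 4243 neurons and of 6158 nuclei in all. In the library labelled control replicate 1 it kept 30 of 2820 neurons (1.06%, exact 95% interval 0.719% to 1.52%), and in that labelled control replicate 2 it kept 20 of 1423 (1.41%, 0.861% to 2.16%). The mean share was 1.23% ± 0.242 (SD, n = 2 libraries), and the intervals of the 2 libraries overlapped.

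In the suprachiasmatic nucleus, neurons that make vasoactive intestinal peptide (Vip) lie in the core, where fibres from the retina end. The peptide acts on the receptor VPAC2, the product of Vipr2, which raises cyclic AMP in the receiving neurons and helps to keep their rhythms together. Most neurons of the nucleus release GABA, and each runs a molecular clock in which CLOCK and ARNTL bind E-boxes and drive Per and Cry genes, whose proteins then repress them. Prok2 encodes prokineticin 2, a peptide by which the nucleus signals to its targets, Rgs16 encodes a regulator of G protein signalling, and Syt10 encodes a member of the synaptotagmins, which bind calcium in vesicle release.

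The study compared mice about 18 months old whose hypothalamus received hypothalamic stem cells made from human pluripotent stem cells with control mice of that age. Nuclei of frozen whole hypothalamus gave 4 samples, of which 2 carry the control label and 2 the transplanted label. No strain, sex, graft dose, time after grafting or hour of collection is given in the sources used here. The first control title joins a pair of animal codes, and whether the nuclei of those animals were pooled is not stated.

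The 4 matrices held 2 sets of nuclei, each deposited under both labels. Control replicate 1 shared 3997 of its 4008 barcodes with transplanted replicate 1, control replicate 2 shared 2144 of its 2150 with transplanted replicate 2, and the remaining pairs shared 4. Which label belongs to which nuclei therefore cannot be told apart, no comparison of transplanted with control mice was made, and n is 2 libraries throughout. The control-labelled matrices held 8779880 and 4924563 UMIs. Counts for the same nuclei differed somewhat between deposits: the 30 and 20 gated nuclei carried 154 and 100 UMIs of the gate genes in the control-labelled matrices and 142 and 90 in the others, and 25 and 17 of them met the rule in both. Nuclei are not replicates, and since the labels do not tie the libraries to separate animals, p-values measure only the spread between these libraries, which may be technical.

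Promoter sequences are shown for the gate genes Vip and Prok2 and for Avp, all peptide genes of the nucleus whose transcripts are reported below. They come from RefSeq on build GRCm38.p6 and run from 250 bases before to 50 bases after the transcription start, 5′ to 3′ on the strand of the gene. Capitals mark an E-box, CACGTG, the site of CLOCK and ARNTL, in Prok2 and Avp, and the core of the cyclic AMP response element, TGACG, in Vip. The windows lie at chr10:5638968-5639267 (plus strand) for Vip, chr6:99726343-99726642 (minus strand) for Prok2 and chr2:130582539-130582838 (minus strand) for Avp.
Vip: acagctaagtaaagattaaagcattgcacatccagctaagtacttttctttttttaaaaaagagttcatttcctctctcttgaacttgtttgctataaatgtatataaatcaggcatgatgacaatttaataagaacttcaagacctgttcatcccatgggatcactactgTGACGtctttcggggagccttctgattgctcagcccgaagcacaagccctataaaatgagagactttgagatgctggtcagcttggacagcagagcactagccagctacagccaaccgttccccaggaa
Prok2: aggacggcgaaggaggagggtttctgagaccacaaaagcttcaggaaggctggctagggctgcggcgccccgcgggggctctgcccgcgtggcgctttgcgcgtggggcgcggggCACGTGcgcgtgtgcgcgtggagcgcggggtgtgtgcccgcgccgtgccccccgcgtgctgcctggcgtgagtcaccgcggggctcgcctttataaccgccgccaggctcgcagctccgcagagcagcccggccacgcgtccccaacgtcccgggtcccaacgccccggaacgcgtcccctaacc
Avp: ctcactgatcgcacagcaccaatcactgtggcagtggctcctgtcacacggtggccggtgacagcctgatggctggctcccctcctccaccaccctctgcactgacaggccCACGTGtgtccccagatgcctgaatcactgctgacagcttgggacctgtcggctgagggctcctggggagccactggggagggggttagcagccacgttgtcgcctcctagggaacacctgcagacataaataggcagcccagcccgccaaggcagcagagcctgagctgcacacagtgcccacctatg

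All 6 gate genes had a window in the RefSeq table, and both strands were searched. The E-box was found in 1 of the 6, Prok2, where it began 135 bases before the start, and the Avp window held it 139 bases before the start. Of 32851 promoter windows of mouse genes, 7.15% held an E-box. The core TGACG was found in 2 of the 6, Vip and Syt10, against 20.8% of all windows. The full cyclic AMP response element, TGACGTCA, which contains that core, and the D-box, TTATGTAA, the site of Dbp, Tef and Hlf, were in 0 of the 6 windows, against 1.79% and 0.938% of all windows. The window of Nms, another peptide gene reported below, held no match to any of these sites. The printed windows all hold a match, so they do not represent the peptide genes as a group. A match is a match of letters, and no binding was measured.

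Vipr2 and Syt10 carried most members into the gate. Vipr2 was detected in 38 of the 50 gated nuclei, Syt10 in 34, Sh2d4b in 17, Prok2 in 15, Rgs16 in 12 and Vip in 9. The pair found together most often was Vipr2 with Syt10, in 24 nuclei, followed by Vipr2 with Sh2d4b in 14 and Vipr2 with Prok2 in 11. Vip was found with Syt10 in 7 nuclei, with Vipr2 in 3 and with Sh2d4b in 0. Because the gate asks for these transcripts, their levels are given as a description with no test.

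Levels are CPM, the share of a gene in all UMIs of the summed nuclei on the usual CPM scale, which are not corrected for gene length, so they compare groups within a gene. Vip stood at 323 and 286 CPM in the gated neurons of control replicates 1 and 2, and at 1.16 and 1.65 CPM in the other neurons. For Vipr2 the levels were 673 and 770.1 CPM against 11.2 and 12 CPM. Prok2 stood at 283 and 154 CPM against 5.17 and 4.24 CPM. The first library was the higher for Prok2 and the second for Rgs16, which had 67.3 and 286 CPM against 1.42 and 3.77 CPM. Sh2d4b stood at 269 and 198 CPM against 3.75 and 4.71 CPM, and Syt10 at 458 and 506 CPM against 13.6 and 20 CPM.

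Nuclei rich in oligodendrocyte markers, which should lack these transcripts, serve as a measure of free RNA. In the 226 and 231 such nuclei (median 666 and 697 UMIs, against 2160 and 1899 in gated neurons) Vipr2, Prok2 and Rgs16 had 0 UMIs, which allows up to 18.1 and 16.9 CPM in the 2 libraries. Vip had 0 and 1 UMIs there, Syt10 0 and 1, and Sh2d4b 2 and 3, or 12 and 16.9 CPM. The levels of Sh2d4b in other neurons were thus below its level in these nuclei.

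**Figure D1:**
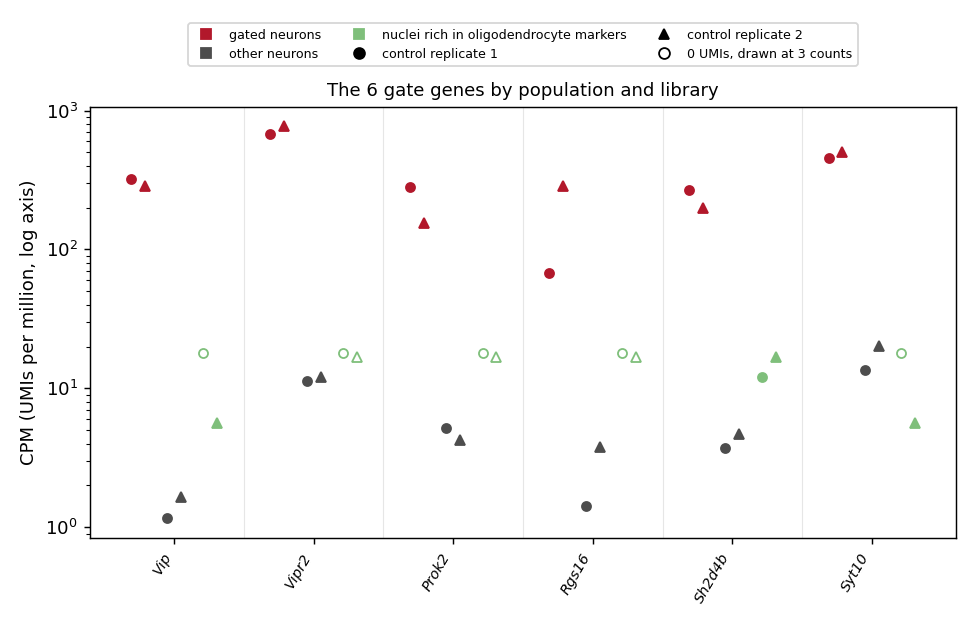
Level of each gate gene (CPM, log axis) in gated neurons (red), other neurons (grey) and nuclei rich in oligodendrocyte markers (green), with circles for control replicate 1 and triangles for control replicate 2; open symbols mark 0 UMIs and stand at the level of 3 counts. The gate chose the red points to be high; Vip lies at 323 and 286 CPM in them, and at 1.16 and 1.65 CPM in other neurons.

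The threshold cuts a sparse distribution. Of the 4243 neurons, 3822 had no UMI of the 6 genes. Just inside the gate lay 17 nuclei with a sum of 3, and another 10 had a sum of 4 and 23 a sum of at least 5. Just outside lay 27 nuclei with 1 UMI of each of 2 genes and 15 with at least 3 UMIs of a lone gene. Within the gate 32 nuclei had 2 of the genes, 12 had 3 and 6 had 4 or more. The gate held 69.8% of all Vip UMIs found in neurons, 38.1% of those of Vipr2 and 23.1% of those of Syt10, so most UMIs of Vipr2 and Syt10 lay outside it.

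Genes that mark the suprachiasmatic nucleus and that the rule did not use were set beside the label. Six3, a homeobox gene of the developing eye and anterior hypothalamus, stood at 256 and 110.0 CPM in gated neurons against 16.9 and 15.1 CPM in other neurons. The difference was 3.34 ± 0.54 (log2, SE; edgeR adjusted p = 5.30e-08), and 16 of the 50 nuclei had a UMI. Zfhx3, a zinc finger gene needed for normal daily rhythms, was found in 47 of the 50 nuclei and stood at 2746 and 2200.3 CPM against 962 and 907 CPM, a difference of 1.13 ± 0.19 (adjusted p = 1.13e-07). Lhx1, a LIM homeobox gene of this nucleus, had 40.4 and 110.0 CPM against 11.8 and 9.9 CPM, and its difference of 2.32 ± 0.95 did not pass (adjusted p = 0.21). Each library was higher in gated neurons for all 3 genes.

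Other marks of the nucleus were thin or missing. Nms, the gene of neuromedin S, a peptide of many suprachiasmatic neurons, had 4 and 1 UMIs in gated neurons and 3 and 0 in all other neurons, too few to test. Six6 and Grp, the gastrin-releasing peptide gene of core neurons, had no UMI in gated neurons, which allows up to 40.4 and 66 CPM in the 2 libraries. Over the 18 suprachiasmatic transcription factors, 11 had enough UMIs to test. Of these 4 rose (Six3, Zfhx3, Rora, Rorb), 0 fell and 7 did not pass, where 1.22% of all tested genes rose and 3.26% fell. Their median difference was 0.63, or 0.74 without the 2 that had no UMI in gated neurons, beside -0.46 and -0.23 over all tested genes. These marks share nuclei with the gate genes, which were proposed from a grouping of the same nuclei, and are not independent evidence for the label.

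Markers of other neurons of the hypothalamus were low. The 24 genes of that list, which include Pomc, Hcrt, Pmch, Oxt and Trh, summed to 94.2 and 110.0 CPM in gated neurons against 647 and 614 CPM in other neurons, and 20 and 22 of them had no UMI. Agrp, the agouti-related peptide gene, accounted for 7 of their 12 UMIs, at 40.4 and 88 CPM against 35.1 and 34.9 CPM in other neurons. Markers of cortical Vip interneurons summed to 188 and 198 CPM against 678 and 843 CPM. Of these, Adarb2 fell, with 3 and 0 UMIs and 40.4 and 0 CPM in gated neurons against 477 and 628 CPM (difference -4.69 ± 0.49, adjusted p = 1.86e-19), and Htr3a had no UMI. Oligodendrocyte markers stood at 135 and 88 CPM against 134 and 157 CPM, and astrocyte markers at 121 and 132 CPM against 120.1 and 103 CPM. The next 3 lists were lower in both gated libraries. Oligodendrocyte precursor markers had 67.3 and 308 CPM against 326 and 385 CPM, microglia markers 40.4 and 132 CPM against 142 and 150.1 CPM, and markers of tanycytes and ependymal cells 40.4 and 44 CPM against 81.3 and 82.2 CPM. Endothelial and pericyte markers had 1 and 0 UMIs. Tnr, to which every precursor UMI in gated neurons belonged, fell (difference -1.24 ± 0.34, edgeR adjusted p = 0.00726), as did P2ry12 of the microglia list with 1 and 3 UMIs (difference -1.99 ± 0.62, edgeR adjusted p = 0.0347). Few glial or vascular markers could be tested: 6 of oligodendrocytes, 4 of astrocytes, 2 of precursors, 3 of microglia, 2 of tanycytes and ependymal cells and 1 vascular. None rose, but only 1.22% of all tested genes did, so nothing is read from that. At least 3 UMIs of a glial list were found in 2 and 0 of the gated nuclei, which is 6.67% and 0% of them, against 3.41% and 2.42% of other neurons.

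The 50 nuclei were then compared with the 4193 other neurons of the same libraries, as sums of counts per library. In control replicates 1 and 2 median depth was 2160 and 1899 UMIs per nucleus in gated neurons and 2373 and 2696 in other neurons. Gated neurons were richer in a set of transcripts led by the long noncoding RNA 9330185C12Rik, Prr5l, Cdc14a and Kcnh8, in Nrg1 and in the clock-linked receptor Rorb, and they lacked Elmo1, Pld5 and Foxp2. Of 12316 genes tested with edgeR, 551 passed at an adjusted p of 0.05 (4.47%). In gated neurons 150 of them were higher (1.22%) and 401 lower (3.26%). With DESeq2 364 passed, of which 49.5% were higher against 27.2% in edgeR. The median difference of all tested genes was -0.46 and moved to -0.30 with another scaling (DESeq2 size factors), and the differences below stand on that background.

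Kcnh8, a voltage-gated potassium channel of the ether-a-go-go family, had 902 and 792 CPM in gated neurons against 47 and 55.6 CPM in the others. Its difference was 3.80 ± 0.25 (adjusted p = 2.34e-47), and 29 of 50 nuclei carried it. Nrg1, which encodes neuregulin 1, a ligand of ErbB receptors, reached 17874 and 15269.9 CPM against 1648 and 1689 CPM, was found in 48 nuclei and differed by 3.04 ± 0.19 (adjusted p = 4.70e-53). Both genes were higher in both libraries, which the rule for naming genes required.

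9330185C12Rik had 471 and 418 CPM against 12.4 and 8.01 CPM, the largest rise among the genes named by size (5.11 ± 0.42, adjusted p = 1.81e-31). Cdc14a, which encodes a phosphatase, had 552 and 396 CPM against 18 and 17.7 CPM (4.49 ± 0.37, adjusted p = 3.73e-30), and Prr5l 296 and 330.0 CPM against 8.91 and 13.7 CPM. These transcripts were rare in other neurons and were found in 23, 31 and 19 of the 50 gated nuclei. Sema3e, a secreted guidance protein, stood at 363 and 110.0 CPM against 20.8 and 23.3 CPM. With the gate applied after thinning every nucleus to 1000 UMIs its difference was 1.89 and did not pass (edgeR adjusted p = 0.841).

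Slc2a13, a myo-inositol transporter, had 2127 and 1694 CPM against 221 and 234 CPM and was found in 37 nuclei. Prkd1, a protein kinase, stood at 1225 and 990.1 CPM against 157 and 124 CPM in 41 nuclei, and Nnat, the imprinted gene of neuronatin, at 1049.8 and 660.1 CPM against 126 and 116 CPM in 29. Stk32a, Tmem219, Gm13481 and Lhfp had differences between 2.74 and 2.87, and Lhfp did not pass with the thinned gate (edgeR adjusted p = 0.234). Rorb and Avp, also among the 15, are described with the clock and peptide genes. The plot shows the genes with the largest rises in the 3 populations. They were chosen for a large rise in both libraries, so their separation from other neurons largely follows from that choice.

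**Figure D2:**
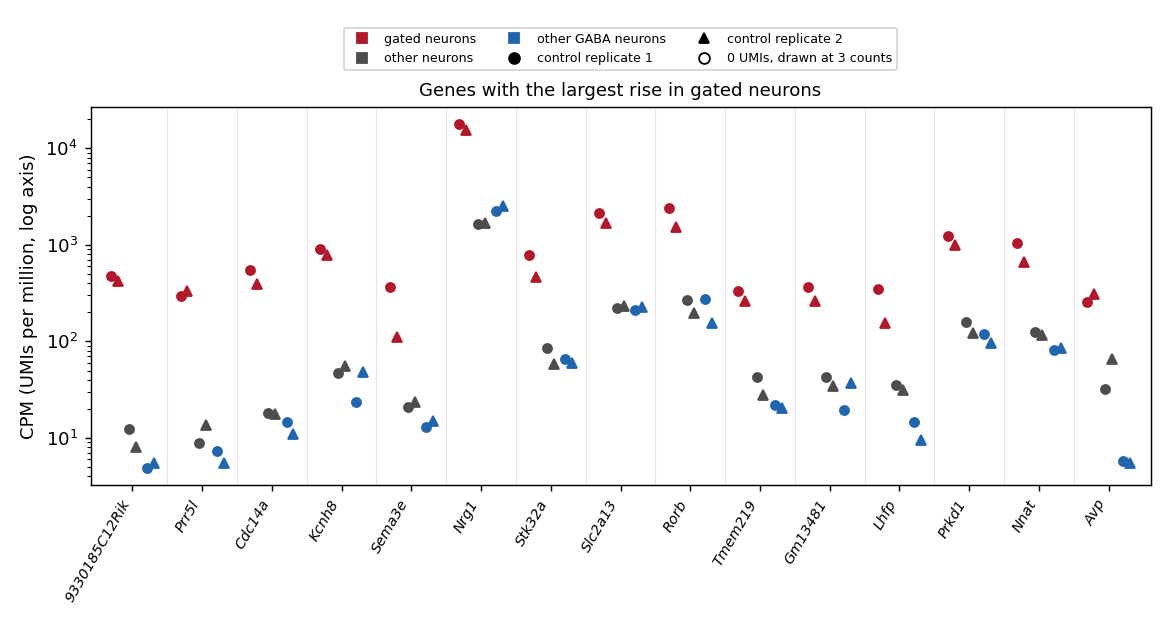
Level (CPM, log axis) of the 15 genes with the largest rise in gated neurons (red), with other neurons (grey) and other GABA neurons (blue); circles are control replicate 1 and triangles control replicate 2. The genes were chosen for a large rise in both libraries, so the red points lie high by choice, for example Nrg1 at 17874 and 15269.9 CPM.

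The 10 named genes that fell all had 0 UMIs in gated neurons, where 3 counts would be 25.1 CPM over both libraries, and their folds are bounds at that level. Elmo1, an engulfment and motility gene, was at least 9.91-fold lower, from 229 and 283 CPM in other neurons (edgeR adjusted p = 3.36e-12). Pld5 was at least 7.57-fold lower, D030068K23Rik at least 6.94-fold, Foxp2, a forkhead transcription factor, at least 6.76-fold, and Kcnj6, an inward rectifier potassium channel, at least 5.49-fold. For Prlr, the prolactin receptor, the bound was 4.26-fold, and it did not pass with at least 3 gate genes required (edgeR adjusted p = 0.0766). Zfp536, Ak5, Ndst4 and Ildr2 completed the set. With DESeq2, 9 of these 10 did not pass (adjusted p from 0.521 to 0.678), Ndst4 being the exception.

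**Figure D3:**
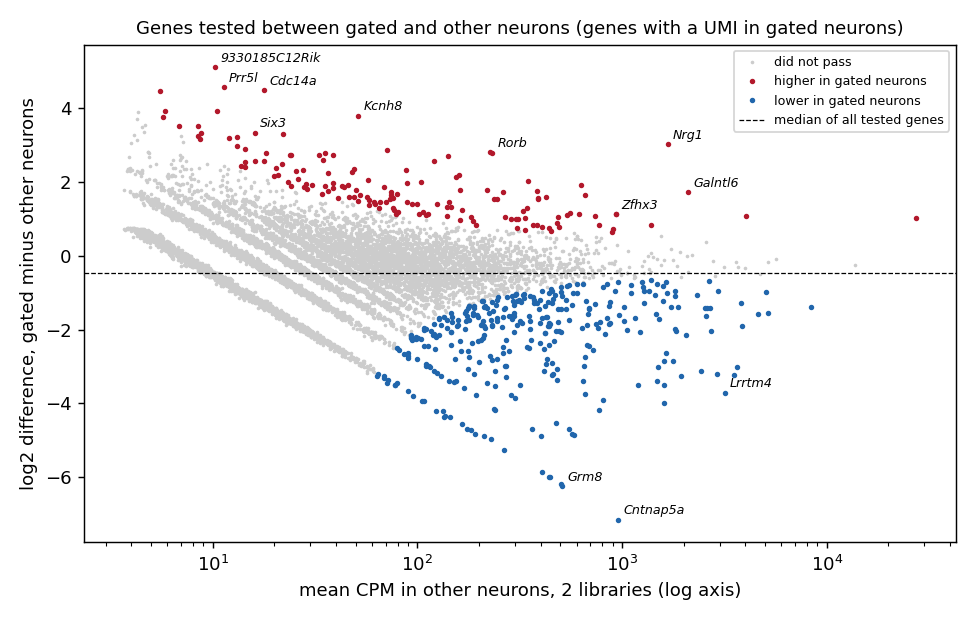
Each point is a tested gene, placed by its mean CPM in other neurons (log axis) and by its log2 difference between gated and other neurons; red points passed higher, blue points passed lower, and the dashed line is the median of all tested genes, -0.46. It shows the 10011 genes with a UMI in gated neurons, and leaves out 2305 without, 68 of which passed lower.

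Malat1, a long RNA retained in the nucleus, was singled out after its values were seen because it takes a large part of the counts. It stood at 48372 and 82444 CPM in gated neurons against 18342 and 36190.1 CPM in other neurons (difference 1.02 ± 0.20, adjusted p = 1.17e-05). Its part in the levels of other genes was not tested.

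A narrower comparison set the gated neurons beside 567 other neurons with at least 3 UMIs of Gad1, Gad2 and Slc32a1 in sum and none of Slc17a6, called other GABA neurons. Their median depth was 2941 and 3294 UMIs per nucleus in control replicates 1 and 2, against 2160 and 1899 in gated neurons. The gated neurons were not chosen by GABA genes. The part of depth in the differences was not tested. Of 6161 genes tested, 455 passed (7.39%), 181 of them higher (2.94%) and 274 lower (4.45%). DESeq2 called 265, with 50.9% higher against 39.8%. Both comparisons share the gated nuclei, so their values stand side by side and their overlap is not a result. Among the 25 genes named in each, Mir670hg, Meis2 and Ecel1 were named only here, in place of Avp, Ndst4 and Ildr2. Nrg1 stood at 2246 and 2549.9 CPM in other GABA neurons, where its difference was 2.80 ± 0.13. Kcnh8 stood at 23.8 and 47.8 CPM (4.68 ± 0.31) and Rorb at 277 and 156 CPM (3.20 ± 0.20) there. Meis2, a homeobox gene of other GABA neurons, had 131 and 189 CPM there and 0 UMIs in gated neurons (at least 6.09-fold lower, adjusted p = 6.39e-05), and did not pass with DESeq2 (adjusted p = 0.628).

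Clock genes run the molecular oscillator, which most cells of the body hold. Of 24 tested against other neurons, 5 rose (Per2, Hlf, Tef, Rora and Rorb), 0 fell and 19 did not pass. Rora and Rorb also stand in the list of suprachiasmatic transcription factors, so their calls are counted in both lists. Among all tested genes 1.22% rose and 3.26% fell. The median difference of the list was 0.96, or 1.05 without its gene at 0 UMIs, beside -0.46 and -0.23 over all tested genes. Rorb, a nuclear receptor that activates Arntl, had 2409 and 1518 CPM in gated neurons against 267 and 197 CPM in other neurons and was found in 42 of 50 nuclei (2.80 ± 0.20, adjusted p = 7.54e-43). Rora, its relative, had 1561 and 2068 CPM against 773 and 1025 CPM (0.74 ± 0.19, adjusted p = 0.00373).

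Per2, a repressor of the loop, had 296 and 66 CPM against 28.2 and 19.6 CPM, from 22 and 3 UMIs (2.75 ± 0.49, adjusted p = 1.45e-06). Hlf, a bZIP factor that binds the D-box, had 229 and 132 CPM against 21.7 and 26.6 CPM (2.74 ± 0.51, adjusted p = 4.49e-06), and Tef, of the same family, 148 and 198 CPM against 42.6 and 59.9 CPM (1.49 ± 0.43, adjusted p = 0.017). The activators Clock and Arntl did not pass, at 135 and 264 CPM against 105 and 142 CPM, and at 94.2 and 132 CPM against 50.4 and 67.4 CPM. Per3 stood at 202 and 66 CPM against 206 and 106 CPM, a difference of -0.46 ± 0.38 that did not pass. The same 5 genes passed against other GABA neurons, of 13 tested, where 2.94% of all tested genes rose.

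Peptide genes gave 3 that rose and 1 that fell among 14 tested, where 1.22% of all tested genes rose and 3.26% fell. Their median difference was -1.11, or 0.03 without the 4 at 0 UMIs, beside -0.46 and -0.23 over all tested genes. Avp, the vasopressin gene, which marks the shell of the nucleus and also large neurons elsewhere in the hypothalamus, had 256 and 308 CPM in gated neurons against 32.2 and 65.5 CPM in other neurons (2.35 ± 0.37, adjusted p = 1.76e-08). It was found in 13 gated nuclei, with at most 6 UMIs in any, and the nuclei rich in oligodendrocyte markers held 12 and 28.2 CPM of it. With the gate applied after thinning every nucleus to 1000 UMIs the difference of Avp was 1.63 and did not pass (adjusted p = 0.352). C1ql3, a secreted synaptic protein, had 108 and 110.0 CPM against 5.81 and 11.1 CPM (adjusted p = 0.00252), and Scg2, a secretogranin of dense-core vesicles, 336 and 660.1 CPM against 132 and 154 CPM (1.45 ± 0.28, adjusted p = 1.01e-05). Gal, the galanin gene, had 1 and 0 UMIs against 82.8 and 71.9 CPM (adjusted p = 0.0106), which is 9.45-fold lower with a counting interval of 1.69 to 374. Against other GABA neurons 5 peptide genes had enough UMIs to test. Scg2 was the 1 that rose and 1 fell, beside 2.94% and 4.45% of all genes tested there. Avp, at 5.73 and 5.47 CPM there, and C1ql3 did not reach the minimum for that test.

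Receptors for signals of the nucleus and the retina gave 0 that rose and 2 that fell of 11 tested against other neurons. Their median was -1.42 (-1.06 without the 3 at 0 UMIs). Over all tested genes 1.22% rose and 3.26% fell, with a median of -0.46 (-0.23). Htr7, a serotonin receptor, had 0 and 1 UMIs, against 166 and 105 CPM in other neurons (adjusted p = 1.69e-05), and Grin2a, a subunit of NMDA receptors, had 80.8 and 88 CPM against 203 and 289 CPM (-1.77 ± 0.42, adjusted p = 9.00e-04). Gpr176, an orphan receptor that lowers cyclic AMP in this nucleus, had 242 and 88 CPM against 70.5 and 59.4 CPM (1.18 ± 0.40, adjusted p = 0.0647). It passed against other GABA neurons (1.56 ± 0.41, adjusted p = 0.00732). Prokr2, the receptor of prokineticin 2, had 5 and 3 UMIs in gated neurons and 13 and 19 in all others, below the minimum for a test.

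Of the 50 nuclei, 31 had a UMI of Gad1, Gad2 or Slc32a1 and none of Slc17a6, the vesicular glutamate transporter, 3 had Slc17a6 alone, 0 had both and 16 had neither. Of the 4193 other neurons, 1573 had GABA genes alone, 1089 Slc17a6 alone, 137 both and 1394 neither. Gad1, which makes GABA, had 309.6 and 220.0 CPM against 44.8 and 69.3 CPM in other neurons (2.07 ± 0.36, adjusted p = 4.94e-07). It was the only gene that passed of the 5 in its list, all 5 being tested, where 1.22% of all tested genes rose. Gad2, the second synthesizing enzyme, had 283 and 176 CPM against 228 and 192 CPM, and Slc32a1, the vesicular GABA transporter, 80.8 and 88 CPM against 72.2 and 66.7 CPM, and neither passed. Slc17a6 fell, at 67.3 and 0 CPM against 189 and 135 CPM (-2.31 ± 0.54, adjusted p = 8.78e-04). Gad1, Gad2 and Slc32a1 chose the other GABA neurons, so their levels there, 895 and 682 CPM for Gad2, were set by that choice. They stayed among the genes tested there, and Gad2 and Slc32a1 are counted in the 274 that were lower, from which nothing is read.

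**Figure D4:**
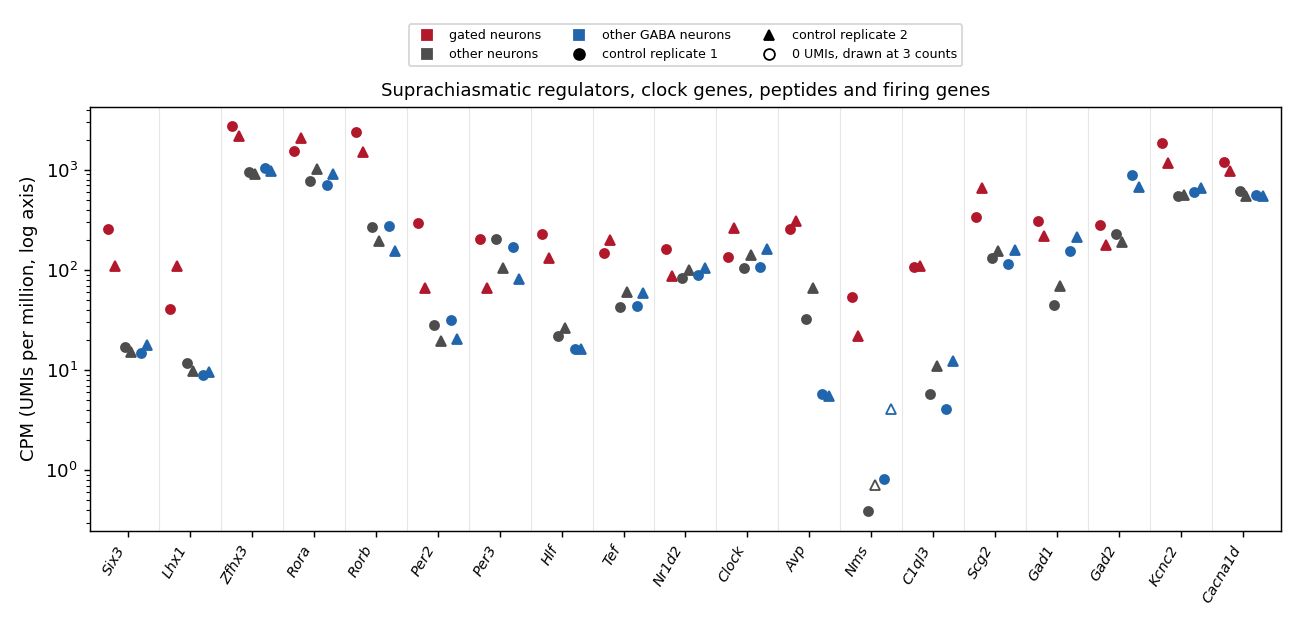
Level (CPM, log axis) of regulators, clock genes, peptide genes, GABA genes and channels in gated neurons (red), other neurons (grey) and other GABA neurons (blue), with circles for control replicate 1, triangles for control replicate 2 and open symbols for 0 UMIs, drawn at the level of 3 counts. Rorb lies at 2409 and 1518 CPM in gated neurons and at 267 and 197 CPM in other neurons. The points of Per3 and Gad2 overlap between gated and other neurons.

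Of 36 channel genes that bear on pacemaker firing, 2 rose, 7 fell and 27 did not pass. Among all tested genes 1.22% rose and 3.26% fell. The median was -0.88 beside -0.46 over all tested genes (-0.83 and -0.23 with genes at 0 UMIs set at their bound or left out). Kcnc2, a fast delayed rectifier of the Kv3 family, was among those that rose, at 1857 and 1166 CPM in gated neurons against 554 and 559 CPM (1.18 ± 0.20, adjusted p = 1.82e-07). Ryr2, a calcium release channel, had 40.4 and 88 CPM against 632 and 688 CPM (-3.75 ± 0.39, adjusted p = 3.99e-19), and Kcnj6 was at 0 UMIs. Against other GABA neurons 6 rose and 7 fell of 27, beside 2.94% and 4.45% of all genes tested there. Cacna1g, a T-type calcium channel, was among those that rose there (108 and 198 CPM against 40.1 and 76.5 CPM, adjusted p = 0.0405).

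Of 43 genes of the cyclic AMP pathway, by which VPAC2 signals, 4 rose, 4 fell and 35 did not pass. All tested genes gave 1.22% that rose and 3.26% that fell. The median of the list was -0.54 beside -0.46. The largest rises were in phosphodiesterases, which break cyclic nucleotides down. Pde7b had 740.3 and 880.1 CPM against 135 and 173 CPM (2.13 ± 0.24, adjusted p = 4.79e-17), and Pde10a had 2382 and 2596 CPM against 599 and 722 CPM (1.65 ± 0.19, adjusted p = 1.99e-16). Other members of that family fell: Pde1c had 0 and 2 UMIs against 138 and 165 CPM (adjusted p = 6.98e-05), and Pde8b 108 and 66 CPM against 384 and 334 CPM (-2.27 ± 0.38, adjusted p = 2.33e-07). Members of this list thus passed in both directions.

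Among 14 synaptotagmins other than Syt10, 0 rose and 2 fell. The shares over all tested genes, 1.22% higher and 3.26% lower, are the background for each list here. Syt1, the calcium sensor of fast release, had 834 and 924 CPM against 1937 and 1830.2 CPM (-1.39 ± 0.21, adjusted p = 6.99e-09), and Syt7 had no UMI (at least 2.79-fold lower, adjusted p = 0.00193). Of 13 regulators of G protein signalling other than Rgs16, 0 rose and 2 fell, Rgs6, with 1 and 0 UMIs against 185 and 239.9 CPM (adjusted p = 1.58e-08), and Rgs7. Of 13 GABA-A receptor subunits, Gabrg3 rose (3567 and 2420.3 CPM against 1459 and 1303 CPM, 0.83 ± 0.18, adjusted p = 2.79e-04), and Gabra5 and Gabra2 led the 3 that fell. Of 8 activity-induced genes tested, 0 rose and 0 fell, and Fos had 1 UMI in each library, too few to test. At these shares a list this short may hold no call, so its 0 and 0 are not read as a result.

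Within the gate, the 9 nuclei with a Vip UMI were set against the 41 without. The nuclei with Vip number 7 and 2 in the libraries, and their Vip level was 1682 and 2558 CPM. All 9 carried Cadps2, Asic2, Pcdh9 and Tenm3, and none carried a UMI of Kcnip4, Erbb4 or Grm7. Of 335 genes tested, 23 passed (6.87%), 10 higher (2.99%) and 13 lower (3.88%) in nuclei with Vip. The minimum count was taken over all these nuclei, of which those with Vip held 14270 and 5082 UMIs and those without 60029 and 40367. A gene found only in nuclei without Vip thus met it at a lower level than one found only with Vip. Kcnip4, Erbb4, Grm7, Kirrel3 and Khdrbs2, at 0 or 1 UMIs with Vip, entered through the nuclei without. The numbers higher and lower are therefore not compared. The calls are fragile: 0 genes passed with DESeq2 size factors in edgeR, with another filter on low counts, without the library block, with at least 3 gate genes or with Vip or Vipr2 required (at an unadjusted p under 0.05 the counts were 55, 78, 54, 10 and 61), and DESeq2 called 6. They are read as a description of these nuclei.

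Kcnip4, an auxiliary subunit of Kv4 potassium channels, had 0 UMIs in the 9 nuclei with Vip against 3099 and 2007 CPM in those without, where 28 of 41 carried it (at least 17.2-fold lower, adjusted p = 0.00163). Erbb4, a receptor of neuregulins, was at least 7.39-fold lower, from 1199 and 1065 CPM in 25 of 41 nuclei (adjusted p = 0.00694), and Grm7, a metabotropic glutamate receptor, at least 4.43-fold lower. Kirrel3, an adhesion molecule, had 1 UMI in the nuclei with Vip and 116 in the others, a ratio of 22.4 with a counting interval of 3.93 to 891, and Khdrbs2 had 1 and 78. Rorb was lower too, at 701 and 590.3 CPM against 2815 and 1635 CPM (-1.83 ± 0.43, adjusted p = 0.0211), though 5 of the 9 nuclei carried it.

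Cadps2, which primes dense-core vesicles, had 4555 and 5509.6 CPM in nuclei with Vip against 866 and 1412 CPM, and 26 of 41 nuclei without Vip carried it (2.19 ± 0.31, adjusted p = 0.00304). Asic2, an acid-sensing channel, had 2733 and 4329 CPM against 633 and 817 CPM (2.24 ± 0.35, adjusted p = 0.00427). Ptprk, a receptor phosphatase, had 1962 and 1181 CPM against 267 and 297 CPM and was found in 7 of 9 nuclei against 10 of 41 (2.55 ± 0.48, adjusted p = 0.00836). Pcdh9, a protocadherin, had 2453 and 10823 CPM against 833 and 1784 CPM, the library with 2 nuclei being the higher, with 40 of its 55 UMIs in 1 nucleus. Stk32a passed as well, at 2102 and 787 CPM against 483 and 421 CPM. Avp had 0 UMIs in nuclei with Vip, and all 33 of its gated UMIs lay in nuclei without.

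**Figure D5:**
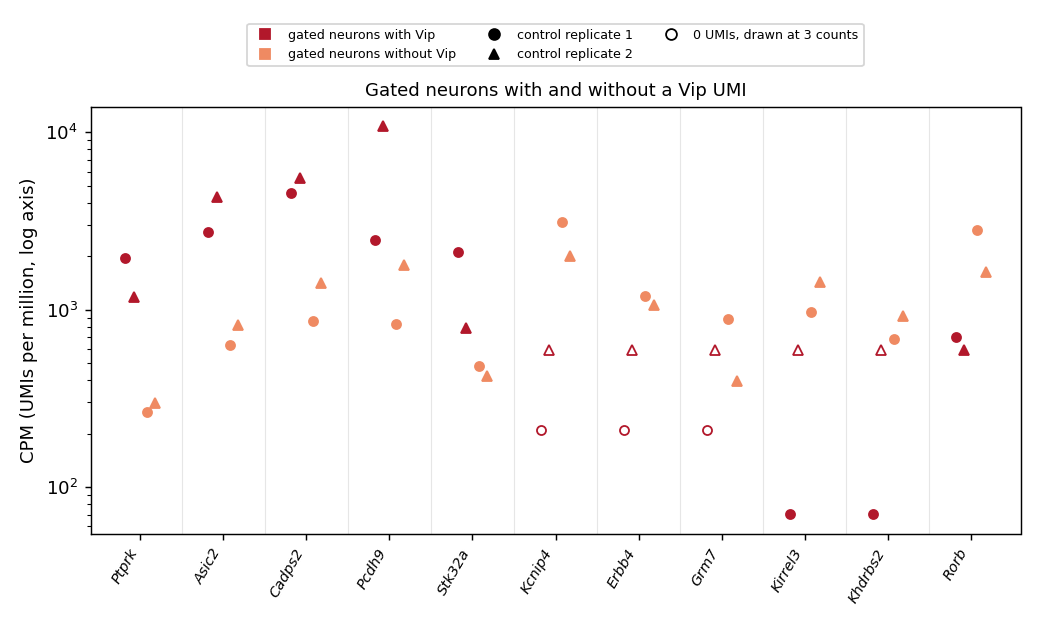
Level (CPM, log axis) of the 10 genes named between gated neurons with Vip (red) and without Vip (orange), and of Rorb; circles are control replicate 1, triangles control replicate 2, and open symbols mark 0 UMIs, drawn at the level of 3 counts. Kcnip4, Erbb4 and Grm7 have open red symbols in both libraries, and Cadps2 lies at 4555 and 5509.6 CPM in nuclei with Vip.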

How the data were processed

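The deposited values are raw counts of UMIs per gene and nucleus from 10x Chromium libraries, written by Cell Ranger per the file headers. Version 5.0.1 and the build GRCh38 stand in the submitters' processing notes, although the files hold mouse gene identifiers, and the mouse build used is not known. Of 32285 identifiers, 32158 are in GENCODE M21, and 38 symbols that stand on more than 1 identifier were left out by symbol. The choice of barcodes by the authors is not known, and the lowest held 500 UMIs. No doublet caller was run, and glial UMIs in neurons are given in its place.

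Counts were summed per library over gated neurons, other neurons and other GABA neurons. The sums were tested with edgeR 4.0.16 in R 4.3.3 (quasi-likelihood, TMM, library as block, population as term), which leaves 1 residual degree of freedom. The library block is a pairing by origin, since both populations come from the same library. Genes needed at least 50 UMIs over the 4 sums. In each comparison the larger population weighs more in that total, so a gene found only there met the minimum at a lower level. The gate genes were not tested. P-values were adjusted by Benjamini-Hochberg over all genes tested, at 0.05. DESeq2 1.42.0 was an alternative, and the code was tested on simulated data. Intervals are exact at 95%, and they and the floor of 3 counts cover counting error only. In each comparison the 15 genes with the largest rise and the 10 with the largest fall were named (5 and 5 for the Vip split), among those that passed with the same sign in both libraries and had at least 30 UMIs in the higher population. Genes of the suprachiasmatic, peptide, receptor, clock and GABA lists could always be named, and those with the 2 largest differences per direction in the other lists. The members, the 20 gene lists and these choices were made with earlier results of these data known, and a gene named otherwise was chosen after its values were seen. Strand was not stated, so reads of a gene and an overlapping antisense gene cannot be told apart. The values of 1 listed gene are not reported here.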

Additional observations from a re-analysis of the deposited data

How the results depend on the processing

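The number of genes that passed between gated and other neurons (551) was 364 with DESeq2, 329 with a gate sum of at least 5, 268 with at least 3 gate genes, 258 with the gate on counts thinned to 1000 UMIs and 314 in nuclei of 2000 to 6000 UMIs. Against other GABA neurons (455) the same settings gave 265, 296, 174, 233 and 242. Between gated neurons with and without Vip (23) the count was 0 with DESeq2 size factors, 6 with DESeq2, 14 with no minimum, 0 with filterByExpr, 0 with at least 3 gate genes, 0 with Vip or Vipr2 required, 2 with thinning, 38 with at least 5 UMIs of Snhg11 and 14 in the matrices labelled transplanted. Without the replicate block, the pairing of populations by library, 403, 338 and 0 genes passed in the 3 comparisons. The cause of these shifts was not tested. Stricter gates leave fewer nuclei and also other nuclei, and these changes were not set apart.

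The share of neurons in the gate (1.23%) was 0.564% with a sum of at least 5, 0.441% with at least 3 gate genes, 0.634% with thinning and 0.850% in nuclei of 2000 to 6000 UMIs, and from 1.06% to 1.41% leaving out either library. The summed level of the gate genes (2136 CPM) was 2644, 2751, 2731 and 1950.4 CPM under those 4 settings, 2322 CPM with Vip or Vipr2 required, and from 2073 to 2200.3 CPM leaving out either library. Without either library no residual degree of freedom is left, so gene differences then have no test. In the matrices labelled transplanted, which hold the same nuclei, 586 and 437 genes passed in the first 2 comparisons, and 455 of the 551 and 367 of the 455 were called there with the same sign.

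Named genes kept their direction under every setting in which they had a value, which their choice fixed in part. A gene that was not tested under a setting has no value there. They were named for the same sign in both libraries, so leaving out either library could not reverse them. A gene at 0 UMIs in gated neurons also stays at 0 under a stricter gate. Between gated and other neurons 17 of the values lost the call, among them Sema3e, Lhfp and Avp with thinning (lowest adjusted p 0.0797 and highest 0.841 over the 5 genes lost there). Against other GABA neurons 13 lost it, and 5 genes had no adjusted p in DESeq2. Between nuclei with and without Vip 65 of the values lost it. The values not lost numbered 358, 339 and 68 in these comparisons. They include the values leaving out either library, which have no test. Genes with few UMIs are limited by depth: 3 counts over both libraries are 25.1 CPM in gated neurons.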

Other observations

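Some of the most abundant differences lay outside the lists and were picked after their values were seen. Galntl6, a glycosyltransferase gene, had 7874 and 8955 CPM in gated neurons against 1934 and 2261 CPM in other neurons (log2 difference 1.73 ± 0.18, edgeR adjusted p = 1.55e-19), and it was lower in gated nuclei with Vip, at 2733 and 787 CPM, than in those without, at 9096 and 9983 CPM. Tenm3, a teneurin that joins synaptic partners, had 2799 and 2970.4 CPM against 617 and 647 CPM (1.92 ± 0.18), and Sox5, a transcription factor, 1049.8 and 1056 CPM against 252 and 272 CPM (1.74 ± 0.21). Both also passed as higher in the nuclei with Vip, in the comparison whose calls are fragile, Tenm3 at 5816 and 7281 CPM against 2082 and 2428 CPM. Of other genes picked in the same way, Lrrtm4 had 417 and 132 CPM against 3222 and 3119 CPM (-3.70 ± 0.26, adjusted p = 1.56e-43), Tenm2 323 and 638 CPM against 3711 and 3351 CPM (-3.24 ± 0.24), and Cntnap5a 1 UMI in all against 1057 and 859 CPM. Grm8, a metabotropic glutamate receptor, also had 1 UMI, against 575 and 447 CPM.

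Levels of single genes also differed between the 2 libraries, which no test can address with 1 sum per library, and this was not limited to clock genes. Per3 stood at 202 and 66 CPM in gated neurons and at 206 and 106 CPM in the others, and Bhlhe41 at 256 and 44 CPM and at 157 and 89.6 CPM. Snhg11, a long noncoding RNA of neurons, stood at 18493 and 8955 CPM in gated neurons and at 19075 and 8426 CPM in the others. Rbfox3, the gene of the neuronal protein NeuN, stood at 127 and 227 CPM in other neurons. In gated neurons it was lower in both libraries, at 40.4 and 22 CPM from 3 and 1 UMIs. Of further neuron markers, Syt1 was also lower there, while Snap25 stood at 983 and 660.1 CPM against 724 and 589 CPM in other neurons.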
